A study of Mus musculus with 30 samples.

Results

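Transcript levels of 10 genes for chromatin remodelers and histone acetyltransferases were examined in RNA-sequencing libraries of mouse amygdala and trunk blood. The genes were Chd3, Chd4, Chd6, Chd7, Pbrm1, Arid1a, Arid1b, Bptf, Ep300 and Kat6a, taken from the deposited expression table by their symbols as 10 of 23303 gene entries. They were chosen by FPKM differences between groups seen in earlier results of these same libraries, so their group differences are given as a description, without a test. All 10 had a mean of at least 0.5 FPKM (sequenced fragments scaled by transcript length and by the size of the library) in both tissues and therefore passed the filter on low values.

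Chromatin remodelers are ATP-driven machines that slide, evict or exchange nucleosomes and so change how readily DNA can be read. Histone acetyltransferases add acetyl groups to lysines of histone tails, a mark of active promoters and enhancers that bromodomain proteins bind. In neurons, histone acetylation and remodeling have been tied to activity-dependent transcription and long-term memory, and mutations in many of these genes cause neurodevelopmental disorders in humans. In blood, the same complexes act in the differentiation of stem cells and lymphocytes.

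All mice were adult male C57BL/6J wild types aged 2 to 3 months, and each library was made from 2 mice that shared a behavioral group. Home-cage controls (HC) were handled and had no behavioral procedure. Fear-conditioned mice (FC) were habituated to the chamber on earlier days, received 5 pairings of a tone with a foot shock and were killed 2 h later. Mice of the third group (Immo+FC) were additionally restrained on a board for 2 h, rested for 7 days, and were then conditioned and killed as the FC mice were. There was no group with immobilization alone. The amygdala libraries, from punches 1 mm wide, comprised 6 HC, 6 FC and 4 Immo+FC pools, and the blood libraries 4 HC, 5 FC and 5 Immo+FC pools.

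Sequencing depth was 23148078 to 31366290 sequences per amygdala library and 9081977 to 25892322 per blood library, the lowest being HC blood library 4. The 7 neuron markers summed to 1816 to 2239 FPKM in amygdala, whereas the choroid plexus markers, which label a neighboring tissue, ranged from 2.63 to 1049 FPKM and the striatal neuron markers from 85.0 to 276 FPKM. In blood, markers of neutrophils, monocytes, B, T and NK cells and platelets were above 0 in every library, and Alas2, an enzyme of heme synthesis in red cell precursors, was listed at 0 in all 14. In these bulk samples, fewer cells of a type and less RNA per cell cannot be told apart.

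The promoter sequences of Pbrm1, Bptf and Chd6 are shown because these genes varied together across the amygdala libraries, as described further on. They are RefSeq sequences of build GRCm38.p6, from 250 bases before to 50 bases after the annotated start, 5′ to 3′ on the strand of the gene, and capitals mark matches to the motifs searched. The coordinates are chr14:31018888-31019187 on the plus strand for Pbrm1, chr11:107132098-107132397 on the minus strand for Bptf and chr2:161109037-161109336 on the minus strand for Chd6.
Pbrm1: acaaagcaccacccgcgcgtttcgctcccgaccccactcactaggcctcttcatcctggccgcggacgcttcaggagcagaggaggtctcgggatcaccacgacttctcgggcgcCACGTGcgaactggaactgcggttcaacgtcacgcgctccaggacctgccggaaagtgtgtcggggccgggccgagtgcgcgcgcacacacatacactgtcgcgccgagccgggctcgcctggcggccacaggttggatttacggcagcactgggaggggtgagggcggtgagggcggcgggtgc
Bptf: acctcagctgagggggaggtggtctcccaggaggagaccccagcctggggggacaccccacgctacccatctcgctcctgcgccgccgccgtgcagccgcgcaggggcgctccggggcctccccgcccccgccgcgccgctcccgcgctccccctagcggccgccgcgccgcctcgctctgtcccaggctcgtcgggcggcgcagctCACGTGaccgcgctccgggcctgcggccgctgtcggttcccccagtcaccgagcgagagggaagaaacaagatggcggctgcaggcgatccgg
Chd6: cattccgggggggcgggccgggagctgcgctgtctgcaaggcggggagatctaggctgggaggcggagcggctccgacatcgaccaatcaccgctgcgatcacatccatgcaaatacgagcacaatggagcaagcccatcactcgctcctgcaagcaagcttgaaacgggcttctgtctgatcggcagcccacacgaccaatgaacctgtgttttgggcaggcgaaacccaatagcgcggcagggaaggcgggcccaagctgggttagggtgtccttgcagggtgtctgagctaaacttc

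These promoters are rich in CpG dinucleotides, the sites of DNA methylation, with 35 in Pbrm1, 39 in Bptf and 20 in Chd6 against a median of 7 over the 32851 promoters of the table. The E-box CACGTG, which reads the same on both strands, started 135 bases before the start of Pbrm1 and 43 bases before that of Bptf, and 7.15% of all promoters held it. The cAMP response element TGACGTCA, which also reads the same on both strands and was present in 1.79% of all promoters, had no match in the 9 promoters of the 7 genes of the list that the table held. No matches overlapped. Promoters of Kat6a, Chd3 and Chd7 were not analysed here.

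The 4 CHD genes encode ATPases with paired chromodomains. Chd4 is the main motor of NuRD, a complex that joins remodeling with histone deacetylation, and Chd3 is its paralog in the same complex, whereas Chd7, mutated in CHARGE syndrome, acts at enhancers and Chd6 is a less studied relative. In GENCODE on GRCm38 they span chr11:69343273-69369406 (Chd3, minus strand), chr6:125095981-125130591 (Chd4, plus), chr2:160946978-161109075 (Chd6, minus) and chr4:8690406-8867659 (Chd7, plus). In amygdala, Chd3 had by far the highest level of the list, with a mean of 107 FPKM ± 6.96 (SD, n = 16), above 96.6% of the 13508 genes tested. Chd4 averaged 23.6 FPKM ± 1.55, Chd6 7.39 FPKM ± 1.37 and Chd7 0.920 FPKM ± 0.117, the lowest of the 10. In blood the order differed, with Chd4 at 20.5 FPKM ± 2.86 (SD, n = 14), Chd3 at 16.7 FPKM ± 3.54, Chd7 at 3.39 FPKM ± 0.484 and Chd6 at 2.67 FPKM ± 0.504. FPKM is scaled by transcript length, so levels can be set beside each other within a tissue, but the authors normalized the tissues separately and levels are not compared directly between them.

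Pbrm1, Arid1a and Arid1b belong to the SWI/SNF complexes, in which ARID1A or ARID1B defines the BAF form and PBRM1, with its row of bromodomains, defines the PBAF form. Arid1a spans chr4:133679008-133756769 on the minus strand and Arid1b chr17:4994332-5347656 on the plus strand. Arid1a was the third most abundant of the 10 in both tissues, at 15.6 FPKM ± 0.979 in amygdala and 13.3 FPKM ± 1.75 in blood. Its paralog Arid1b reached 6.44 FPKM ± 0.345 and 3.86 FPKM ± 0.490, and Pbrm1 reached 5.47 FPKM ± 0.692 and 8.62 FPKM ± 4.54. The wide spread of Pbrm1 in blood came from HC library 3.

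Bptf, at chr11:107033081-107132127 on the minus strand, Ep300, at chr15:81585351-81652077 on the plus strand, and Kat6a, at chr8:22859535-22943259 on the plus strand, complete the list. Bptf, the histone-reading subunit of the remodeler NURF, averaged 8.08 FPKM ± 1.31 in amygdala and 4.48 FPKM ± 1.01 in blood. Of the acetyltransferases, Ep300, a coactivator that acetylates histones at enhancers, averaged 8.17 FPKM ± 0.674 and 6.17 FPKM ± 0.911, and Kat6a, the catalytic subunit of the MOZ complex, 5.79 FPKM ± 0.845 and 6.47 FPKM ± 1.21.

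Chd3, Chd4 and Arid1a had ranges in amygdala that stood apart from those of the next gene in the order, as did Pbrm1 from Chd7. Ep300, Bptf, Chd6, Arid1b, Kat6a and Pbrm1 had ranges that overlapped those of their neighbors, and Ep300 was above Bptf in 9 of 16 libraries. In blood, each gene overlapped its neighbor in range, although within libraries Chd4 was above Chd3 in 14 of 14 and Ep300 above Bptf in 14 of 14. Kat6a was above Ep300 in 7 of 14 blood libraries, so that this pair had no order.

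Fear conditioning was compared with HC in amygdala to ask which transcripts differed after the conditioning procedure. No group received tones or shocks alone, so learning cannot be told apart from the exposure itself. Of the 10 genes, 4 had lower FPKM in FC on average by more than 0.2 on the log2 scale, namely Chd6, Kat6a, Pbrm1 and Bptf, and the other 6 differed by less than 0.1. These values are fitted log2 differences of FPKM + 0.1 with their standard errors. Bptf had the smallest difference of the 4, and 5.86% of the 13508 genes tested had a lower value than Bptf. The limma fit across all genes called 0 of the 10 at an adjusted p of 0.05, and it called 0.0148% of the 13508 genes tested. At an unadjusted p of 0.05 it counted 3 of the 10, all lower in FC, and 13.1% of all genes. The FPKM ranges of HC and FC overlapped for all 10 genes, whereas 1.39% of all genes had ranges that did not overlap.

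Chd6 in amygdala had a lowest, median and highest value of 6.03, 8.52 and 9.12 FPKM in HC and of 5.38, 6.52 and 6.80 FPKM in FC, and the 4 Immo+FC libraries gave 6.38, 8.69, 9.45 and 8.46 FPKM. HC libraries 3 to 6 lay between 8.51 and 9.12 FPKM, above every FC library, whereas HC 1, at 6.03 FPKM, lay among the FC values and HC 2, at 6.80 FPKM, was level with the highest of them. Immo+FC library 1 lay among them as well, below the other 3 Immo+FC libraries. The fitted difference of FC from HC was −0.34 ± 0.11 (log2, SE), a ratio of 0.791, and that of Immo+FC from FC was 0.39 ± 0.12, a ratio of 1.31.

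Kat6a in amygdala had a lowest, median and highest value of 5.39, 6.50 and 6.76 FPKM in HC and of 4.48, 5.15 and 5.93 FPKM in FC, and the Immo+FC libraries gave 4.6, 6.89, 6.79 and 6.15 FPKM. The same libraries were low as for Chd6, with HC 1 and 2 at 5.39 and 5.68 FPKM inside the range of FC. The log2 difference of FC from HC was −0.28 ± 0.10 and that of Immo+FC from FC 0.23 ± 0.11.

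Pbrm1 in amygdala had a lowest, median and highest value of 5.10, 5.94 and 6.48 FPKM in HC and of 4.45, 4.82 and 5.51 FPKM in FC, and the Immo+FC libraries gave 4.48, 6.07, 5.95 and 6.37 FPKM. HC library 1, at 5.10 FPKM, lay within the range of FC and HC library 2, at 5.55 FPKM, lay just above the highest FC library. The log2 difference of FC from HC was −0.25 ± 0.08 and that of Immo+FC from FC 0.21 ± 0.09.

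Bptf in amygdala had a lowest, median and highest value of 6.85, 8.93 and 9.70 FPKM in HC and of 6.23, 7.46 and 8.13 FPKM in FC, and the Immo+FC libraries gave 6.26, 9.49, 10.1 and 9.07 FPKM. HC libraries 1 and 2, at 6.85 and 7.43 FPKM, and Immo+FC library 1 again lay within the range of FC. The log2 difference of FC from HC was −0.24 ± 0.11 and that of Immo+FC from FC 0.26 ± 0.13.

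**Figure D1:**
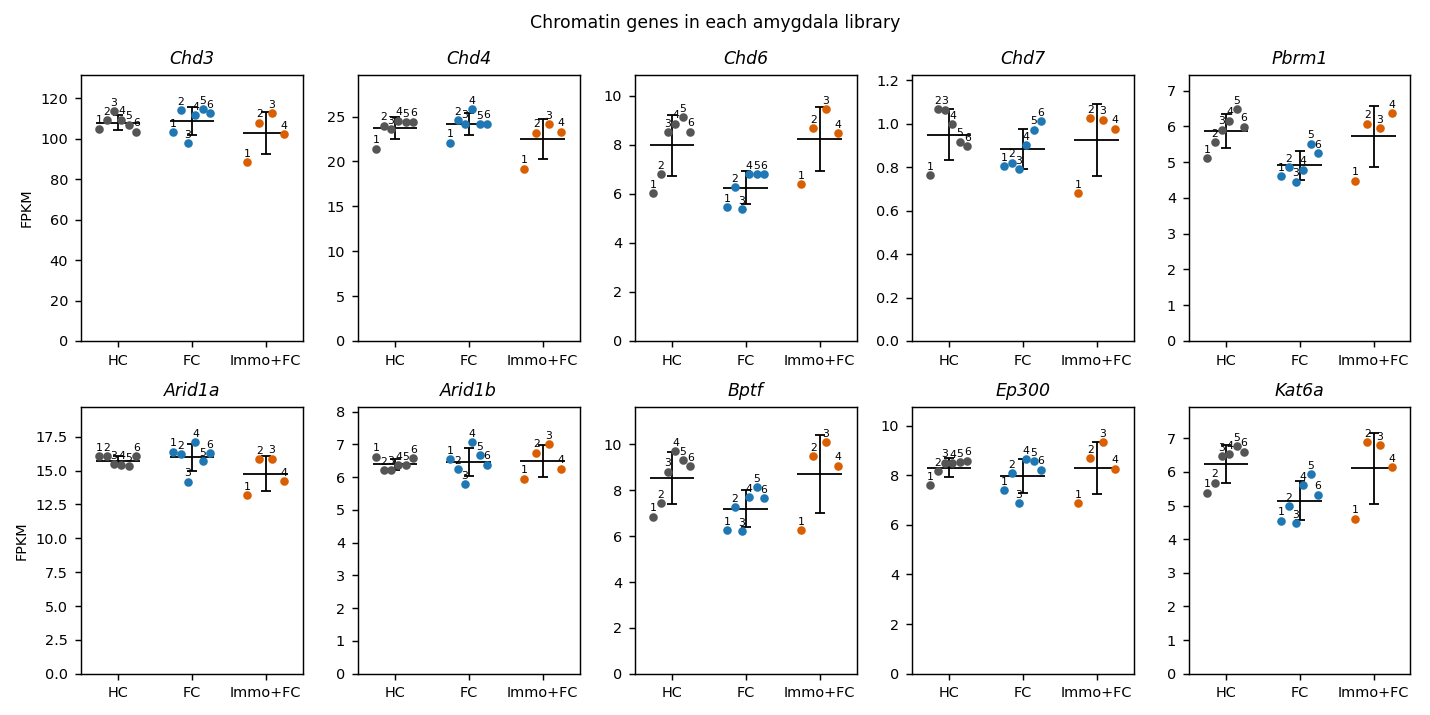
FPKM of each gene in every amygdala library, 1 panel per gene with its own axis from 0, for 6 HC, 6 FC and 4 Immo+FC libraries; numbers are library numbers, lines are means and bars are SD. For Chd6, Kat6a, Pbrm1 and Bptf, HC libraries 3 to 6 and Immo+FC libraries 2 to 4 lie above the FC libraries, while HC libraries 1 and 2 and Immo+FC library 1 lie among them or close by, and in the other 6 panels HC libraries 3 to 6 do not lie above all FC libraries.

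In the fit by group alone, the remaining genes of the list showed smaller differences in amygdala. Chd3 ranged from 88.5 to 115 FPKM and Chd4 from 19.2 to 25.8 FPKM over all libraries, and FC differed from HC by 0.01 ± 0.05 and 0.03 ± 0.05 on the log2 scale. Arid1a, between 13.2 and 17.1 FPKM, and Arid1b, between 5.79 and 7.07 FPKM, differed by 0.02 ± 0.05 and 0.01 ± 0.05. Ep300, between 6.86 and 9.33 FPKM, differed by −0.06 ± 0.07, and Chd7, between 0.681 and 1.07 FPKM, by −0.09 ± 0.11. Immo+FC library 1 was the lowest of all 16 amygdala libraries for Chd3, Chd4, Chd7 and Arid1a.

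The comparison of Immo+FC with FC asked whether conditioned mice with and without earlier stress differed, and it shares its FC libraries with the comparison above. Without a group of immobilization alone, a changed response to conditioning and a lasting effect of immobilization cannot be told apart. Of the 10 genes, 7 had a positive and 3 a negative fitted difference, beside 5397 and 8111 of the 13508 genes tested. The 3 were Chd4 at −0.11 ± 0.06, Arid1a at −0.11 ± 0.06 and Chd3 at −0.09 ± 0.06. Limma called 0 of the 10 at an adjusted p of 0.05 and 0.0222% of all genes. At an unadjusted p of 0.05 it counted 3 of the 10 and 10.4% of all genes, and 0 of the 10 but 2.28% of all genes had ranges that did not overlap. Leaving out Immo+FC library 1 moved the difference from 0.39 to 0.50 for Chd6, from 0.26 to 0.41 for Bptf, from 0.23 to 0.36 for Kat6a and from 0.21 to 0.32 for Pbrm1.

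Immo+FC and HC amygdala were close for every gene of the list. The log2 differences ran from −0.09 ± 0.06 for Arid1a to 0.05 ± 0.12 for Chd6. Limma called 0 of the 10 at an adjusted p of 0.05 and 0.2% of all genes, and at an unadjusted p of 0.05 it counted 0 of the 10 and 13.1% of all genes. All 10 ranges overlapped, whereas those of 2.57% of all genes did not.

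The libraries in which Chd6, Kat6a, Pbrm1 and Bptf were low were also low for long transcripts in general. A score was taken as the mean log2(FPKM + 0.1) of 320 genes with a transcript over 10 kb, each gene centered on its mean over the amygdala libraries and the chromatin genes left out. HC libraries 3 to 6 scored 0.22 to 0.27 and Immo+FC libraries 2 to 4 scored 0.22 to 0.26. HC libraries 1 and 2 scored −0.16 and −0.12, Immo+FC library 1 scored −0.20, and the FC libraries scored −0.34 to −0.12. The longest annotated transcripts of the 4 genes are 10515 bases for Chd6, 9113 for Kat6a, 7907 for Pbrm1 and 12036 for Bptf, against a median of 3433 bases over the genes tested. Arid1b, at 11325 bases, and Chd7, at 10216 bases, are of the same length class, and Arid1b did not follow the score. Arid1a, at 8187 bases, is longer than Pbrm1. It was at 16.1 FPKM in HC libraries 1 and 2 and at 15.3 to 16.0 FPKM in HC libraries 3 to 6. In Immo+FC library 1 Arid1a was at 13.2 FPKM, and in Immo+FC libraries 2 to 4 at 14.2 to 15.9 FPKM. Ep300, with a longest transcript of 9566 bases, showed a smaller split of the same kind, at 7.59 and 8.17 FPKM in HC libraries 1 and 2 and 8.48 to 8.58 FPKM in HC libraries 3 to 6, and at 6.88 FPKM in Immo+FC library 1 and 8.26 to 9.33 FPKM in the other 3.

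Over all 331 tested genes with a transcript over 10 kb, the median log2 difference of FC from HC in amygdala was −0.19, and over the 2739 genes under 2 kb it was 0.03. With the score as a covariate, the difference of FC from HC was 0.04 ± 0.05 for Chd6, 0.03 ± 0.07 for Kat6a, −0.01 ± 0.06 for Pbrm1 and 0.14 ± 0.06 for Bptf, and for Ep300 it was 0.13 ± 0.06 in place of −0.06. For Chd4 it was 0.16 ± 0.05 and for Chd3 0.13 ± 0.06. The difference of Immo+FC from FC with this covariate was −0.0009 ± 0.06 for Chd6 and −0.08 ± 0.07 for Kat6a. For Pbrm1 it was −0.05 ± 0.07 and for Bptf −0.13 ± 0.06. For Chd4 it was −0.25 ± 0.06 and for Chd3 −0.21 ± 0.06. Without HC libraries 1 and 2, and without the covariate, the difference of FC from HC was −0.49 ± 0.10 for Chd6, −0.36 ± 0.10 for Kat6a, −0.32 ± 0.09 for Pbrm1 and −0.36 ± 0.11 for Bptf. Every FC library scored −0.12 or lower, and of the HC libraries 1 and 2 alone reached that level, so that in HC libraries 3 to 6 against FC the score and the group cannot be told apart. The same holds for Immo+FC libraries 2 to 4 against FC.

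**Figure D2:**
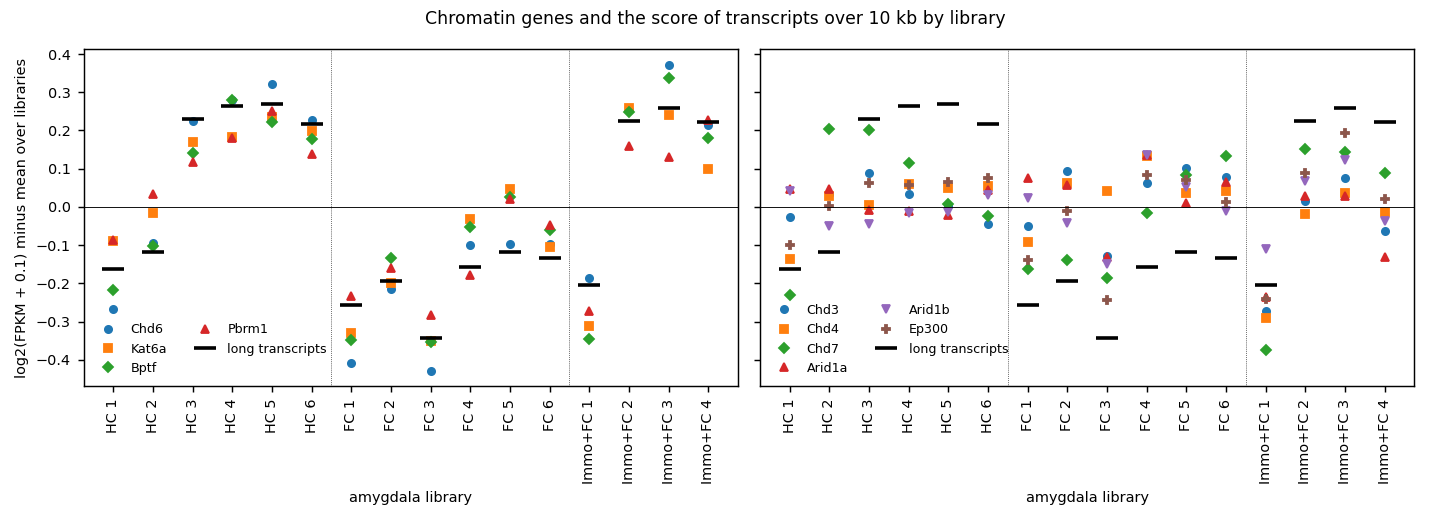
Log2(FPKM + 0.1) of each gene minus its mean over the 16 amygdala libraries (vertical axis), by library (horizontal axis), black bars giving the long-transcript score; dotted lines separate HC, FC and Immo+FC. Chd6, Kat6a, Bptf and Pbrm1, on the left, follow the score, which reads −0.16 in HC library 1, −0.12 in HC library 2 and between 0.22 and 0.27 in the other HC libraries, and on the right Ep300 also lies lower in HC libraries 1 and 2, at 7.59 and 8.17 FPKM, than in HC libraries 3 to 6, at 8.48 to 8.58 FPKM.

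The genes most like these 4 across the 16 amygdala libraries were found by Pearson correlation of log2(FPKM + 0.1) over 13508 genes, which is a description, since all points share their library. For Chd6 they included Utp20 (r = 0.98) and Prrc2c (0.98), and for Bptf they were Itsn2 (0.99), Arhgef12 (0.99) and Huwe1 (0.98). For Kat6a they were Pdpr (0.98), Arhgef12 (0.97) and Bptf itself (0.97), and for Pbrm1 they were Ncam2 (0.97), Aff2 (0.97) and Asxl2 (0.97). The longest annotated transcripts of these correlated genes ran from 4523 bases for Aff2 to 14579 for Huwe1. Those of Pdpr, Itsn2 and Ncam2 have 4938, 6080 and 6106 bases, and those of Arhgef12, Asxl2, Prrc2c and Utp20 10752, 11934, 11502 and 8821. The libraries fall into a high and a low set for these genes, so each coefficient rests largely on that split.

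In blood, FC was compared with HC to ask whether the same exposure was visible in circulating cells. The fitted differences were positive for 8 of the 10 genes, beside 5556 of the 11656 genes tested. They were led by Chd3 at 0.44 ± 0.17, Bptf at 0.37 ± 0.20 and Kat6a at 0.34 ± 0.16. The differences were negative for Pbrm1 at −0.52 ± 0.27 and Chd6 at −0.03 ± 0.19. The 10 genes were chosen by such differences, so the count carries no test. Limma called 0 of the 10 at an adjusted p of 0.05 and 0.0343% of the 11656 genes tested. At an unadjusted p of 0.05 it counted 1 of the 10, Chd3, and 10.2% of all genes. The ranges of all 10 overlapped, whereas those of 3.88% of all genes did not.

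Chd3 in blood gave 14.5, 15.5, 10.6 and 13.2 FPKM in the 4 HC libraries, 17.6, 17.6, 23.5, 20.03 and 13.4 FPKM in the 5 FC libraries and 16.3, 15.5, 21.5, 14.4 and 19.6 FPKM in the 5 Immo+FC libraries. FC libraries 1 to 4 were above all HC libraries and FC library 5 was not. Without HC library 3, the lowest, the difference of FC from HC was 0.33 in place of 0.44.

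Pbrm1 in blood gave 7.15, 7.07, 24.1 and 9.95 FPKM in HC, 6.74, 7.28, 7.96, 7.88 and 6.62 FPKM in FC and 6.45, 7.0, 7.26, 7.17 and 7.97 FPKM in Immo+FC. HC library 3 was 2.42 times as high as the next library, and the remaining 13 lay between 6.45 and 9.95 FPKM. Without it, the log2 difference of FC from HC was −0.13 in place of −0.52 and that of Immo+FC from HC −0.15 in place of −0.55.

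Pbrm1 lies on chromosome 14 from 31019138 to 31121592 on the plus strand (GRCm38), and Smim4, which encodes a small mitochondrial membrane protein, overlaps it over 33461 bases on the minus strand. This overlap was counted over whole gene spans, introns included, and the overlap of exons was not computed. The library kit did not keep strand, and whether reads of Smim4 entered the value of Pbrm1 was not tested. Smim4 was also highest in HC blood library 3, at 235 FPKM, and lay between 65.8 and 103 FPKM in the other 13. Gnl3, which overlaps the same gene over 15 bases, was at 9.09 FPKM there and between 7.99 and 14.6 FPKM in the others. The same library was the highest of the 14 for 21.02% of the genes tested in blood, and the sum of its FPKM values was 1674854 against a median of 851196 over the blood libraries. Across the 14 blood libraries the genes most like Pbrm1 were Adam10 (Pearson r = 0.98, Spearman rho = 0.80), Gm15800 (0.97 and 0.71) and Map4k5 (0.96 and 0.60), each highest in HC library 3 as well.

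Kat6a in blood gave 5.6, 7.05, 5.11 and 4.07 FPKM in HC, 6.98, 5.88, 8.51, 7.09 and 5.87 FPKM in FC and 6.20, 6.02, 8.51, 6.54 and 7.16 FPKM in Immo+FC. All FC and Immo+FC libraries were above HC libraries 1, 3 and 4, and HC library 2 lay among them. Bptf gave 4.35, 4.88, 2.63 and 3.29 FPKM in HC, 4.32, 5.07, 6.25, 4.96 and 3.67 FPKM in FC and 4.04, 3.53, 5.71, 4.46 and 5.55 FPKM in Immo+FC, with all 3 groups overlapping.

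Chd7 in blood gave 2.86, 3.41, 2.88 and 2.58 FPKM in HC, 3.23, 3.26, 3.78, 3.96 and 2.88 FPKM in FC and 3.76, 3.29, 3.86, 3.42 and 4.24 FPKM in Immo+FC. The differences of Chd7 from HC were 0.21 ± 0.13 for FC and 0.33 ± 0.13 for Immo+FC. The remaining 5 genes differed between FC and HC by 0.21 ± 0.13 for Arid1b, 0.17 ± 0.15 for Ep300, 0.10 ± 0.13 for Arid1a, 0.10 ± 0.13 for Chd4 and −0.03 ± 0.19 for Chd6.

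**Figure D3:**
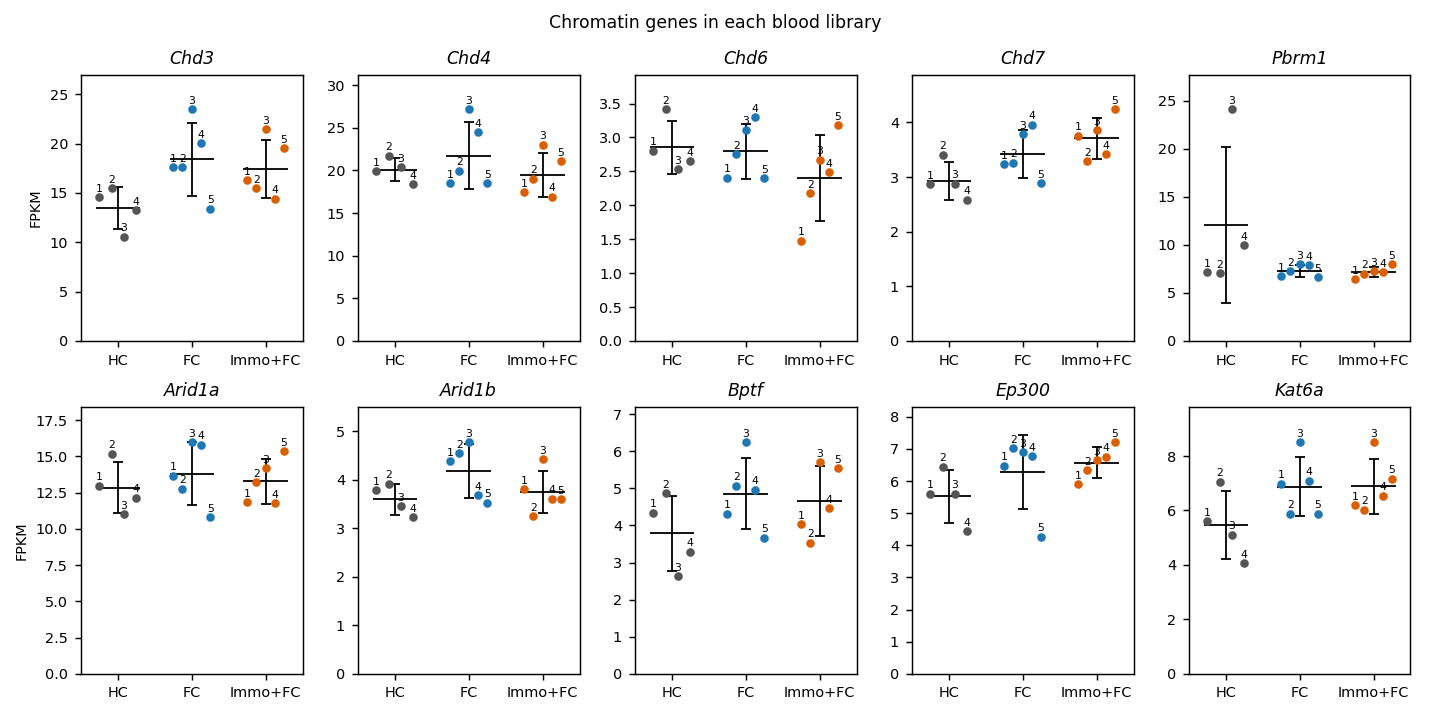
FPKM of each gene in every blood library, 1 panel per gene with its own axis from 0, for 4 HC, 5 FC and 5 Immo+FC libraries; numbers are library numbers, lines are means and bars are SD. Pbrm1 is at 24.1 FPKM in HC library 3 and between 6.45 and 9.95 FPKM in the other 13, and the 3 groups overlap in every panel.

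Immo+FC and FC blood differed little for these genes, from −0.24 ± 0.18 for Chd6 to 0.12 ± 0.12 for Chd7. Limma called 0 of the 10 at an adjusted p of 0.05 and 0% of all genes, at an unadjusted p of 0.05 it counted 0 of the 10 and 9.54% of all genes, and 0 of the 10 but 1.58% of all genes had ranges that did not overlap. Immo+FC against HC in blood, which shares its HC libraries with the comparison of FC, gave 0.37 ± 0.17 for Chd3, 0.35 ± 0.16 for Kat6a, 0.33 ± 0.13 for Chd7, 0.31 ± 0.20 for Bptf, 0.26 ± 0.15 for Ep300, −0.27 ± 0.19 for Chd6 and −0.55 ± 0.27 for Pbrm1. Limma called 0 of the 10 there at an adjusted p of 0.05 and 0.0686% of all genes. At an unadjusted p of 0.05 it counted 3 of the 10, namely Chd3, Chd7 and Kat6a, and 15.3% of all genes, and 0 of the 10 but 4.61% of all genes had ranges that did not overlap.

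Marker levels of several cell types differed between the groups in blood. The 7 neuron markers, of which Rbfox3 was at 0 in 2 libraries and Stmn2 and Nefl in 1 each, summed to 18.4 to 53.5 FPKM in HC, 9.30 to 21.1 FPKM in FC and 9.28 to 20.1 FPKM in Immo+FC. Gad1 alone was at 7.44 to 16.4 FPKM over the blood libraries, with a median of 9.20 FPKM. The medians of the other neuron markers lay between 0.150 FPKM for Rbfox3 and 2.31 FPKM for Snap25. At least 7.44 FPKM of every sum was therefore Gad1. The 6 neutrophil markers summed to 4383 to 28854 FPKM in HC, 8122 to 19803 FPKM in FC and 11988 to 43492 FPKM in Immo+FC. The 4 NK cell markers summed to 188 to 270 FPKM in HC, 297 to 366 FPKM in FC, which did not overlap, and 165 to 384 FPKM in Immo+FC. The 5 T cell markers summed to 245 to 326, 317 to 433 and 241 to 405 FPKM, and the 5 B cell markers to 1140 to 2249, 2005 to 2593 and 1357 to 1969 FPKM. Monocyte, platelet and red cell precursor sums overlapped between HC and FC and between HC and Immo+FC. A neuron marker score was taken as the mean log2(FPKM + 0.1) of the 7 markers, centered over the blood libraries. HC libraries 1, 3 and 4 scored 1.62 to 2.05, HC library 2 scored 0.33 and the FC libraries −1.62 to 0.62. In HC libraries 1, 3 and 4 against FC the score and the group cannot be told apart. With this score as a covariate, the difference of FC from HC was 0.13 ± 0.21 for Chd3, 0.16 ± 0.22 for Kat6a, −0.0041 ± 0.26 for Bptf and −0.43 ± 0.39 for Pbrm1. The part of the neutrophil and lymphocyte markers in these differences was not tested.

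**Figure D4:**
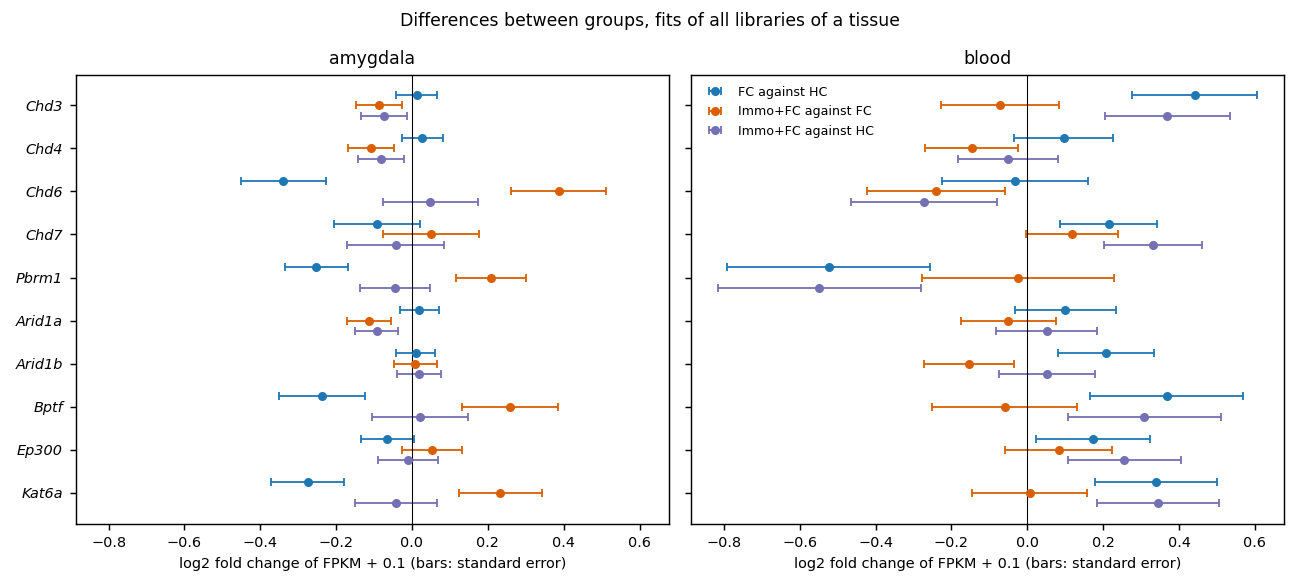
Fitted log2 differences of FPKM + 0.1 with standard errors (horizontal axis) for each gene (vertical axis) in amygdala and in blood, from 1 fit per tissue over all of its libraries. In amygdala, Chd6, Kat6a, Pbrm1 and Bptf are negative in FC against HC, from −0.34 to −0.24, and positive in Immo+FC against FC, from 0.21 to 0.39, and in blood Chd3 is at 0.44 and Pbrm1 at −0.52 in FC against HC.

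Pairs of related genes were also compared as ratios within each library, which do not depend on how a library was scaled. Chd3 was above Chd4 in amygdala, with a Chd3 to Chd4 ratio of 4.55 ± 0.225 (SD, n = 16), whereas Chd4 was above Chd3 in blood, with a ratio of 0.813 ± 0.121 (SD, n = 14). Of the 13 pools with libraries of both tissues, 13 had the higher ratio in amygdala, by 2.51 ± 0.24 on the log2 scale (SD), and the ranges of the tissues did not overlap. Chd6 stood 8.05 ± 1.14 times as high as Chd7 in amygdala and 0.800 ± 0.163 times as high in blood, a log2 difference of 3.35 ± 0.48 that was positive in 13 of 13 pools. Arid1a exceeded Arid1b in every library of both tissues, by 2.42 ± 0.111 times in amygdala and 3.48 ± 0.478 times in blood, and the ratio was lower in amygdala in 13 of 13 pools, with a log2 difference of −0.49 ± 0.20. These ratios were chosen after the values had been seen and carry no test.

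Between groups, the ratios varied less than between tissues. In 5 of 18 comparisons the ranges of the groups did not overlap, and no share over ratios of other gene pairs was computed to set beside that count. For single genes, the share whose ranges did not overlap was 1.39% to 4.61% over the 6 comparisons, so the values below are a description. The Chd6 to Chd7 ratio in blood was 0.882 to 1.03 in HC, 0.744 to 0.844 in FC and 0.393 to 0.751 in Immo+FC, so that both other groups lay below HC. In amygdala it was 6.72 to 7.62 in FC and 8.47 to 9.37 in Immo+FC. The Chd3 to Chd4 ratio in blood was 0.520 to 0.729 in HC and 0.813 to 0.934 in Immo+FC, and the Arid1a to Arid1b ratio in amygdala was 2.41 to 2.59 in HC and 2.22 to 2.35 in Immo+FC. The Chd6 to Chd7 ratio in blood pairs transcripts of 10515 and 10216 bases, and no test was made of these differences.

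**Figure D5:**
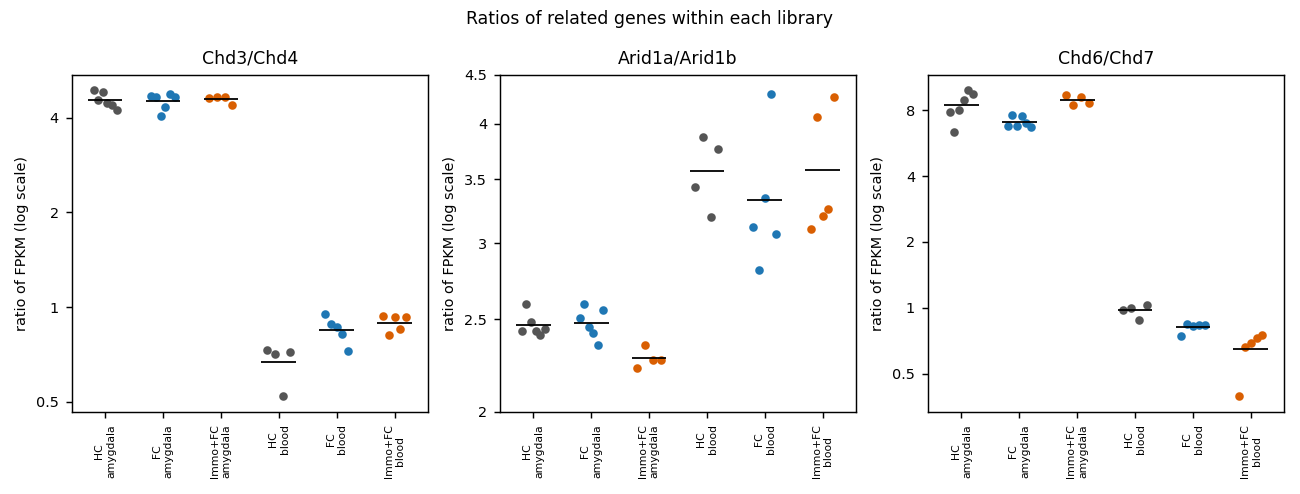
Ratio of FPKM of 2 related genes within each library (vertical axis, log scale) by group and tissue, with each point a library and lines at group means. The Chd3 to Chd4 and Chd6 to Chd7 ratios are higher in every amygdala library than in any blood library, and the Arid1a to Arid1b ratio is lower.

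Other genes of the same machinery were taken from 6 lists of complex subunits, which held 128 genes, 124 of them with an entry of their own in the table. These were subunits of SWI/SNF, of the ISWI remodelers, of NuRD with further CHD proteins, of the INO80, SRCAP and TIP60 complexes, of acetyltransferase complexes and of deacetylase complexes. Limma tested 122 of them in amygdala and 119 in blood, and 0 passed an adjusted p of 0.05 in any of the 6 comparisons. At an unadjusted p of 0.05, FC against HC in amygdala gave 11 higher and 10 lower, beside 6.59% and 6.48% of all genes. Immo+FC against FC gave 8 higher and 15 lower, beside 3.94% and 6.49%, and Immo+FC against HC 4 and 14, beside 5.34% and 7.73%. In blood, FC against HC gave 10 higher and 3 lower, beside 4.34% and 5.87% of all genes. Immo+FC against FC gave 2 and 5, beside 5.79% and 3.75%, and Immo+FC against HC 6 and 8, beside 7.14% and 8.12%. The median log2 difference of the listed genes in these comparisons lay between −0.06 and 0.04, beside medians of all tested genes between −0.02 and 0.01.

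In amygdala, the smallest p values of these lists in FC against HC belonged to Dpf2, a BAF subunit that reads histone tails, Chd1, a remodeler of transcribed genes, and Phf15, a scaffold of an acetyltransferase complex. Dpf2 averaged 13.4 FPKM ± 0.539 in FC and 11.6 FPKM ± 0.624 in HC (SD, n = 6 each), a log2 difference of 0.21 ± 0.04 with a limma adjusted p of 0.104. Chd1 differed by −0.31 ± 0.08 and Phf15 by 0.17 ± 0.04, with limma adjusted p values of 0.110 and 0.114. Dpf2 was also higher in Immo+FC than in HC, by 0.20 ± 0.05 with a limma adjusted p of 0.0908, which shares the HC libraries.

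Among the deacetylases, which remove the mark that Ep300 and Kat6a set, 17 of 19 had a negative difference in Immo+FC against FC in amygdala, beside 8111 of 13508 genes tested, with a list median of −0.10 beside −0.02. Of the 19, 0 passed the adjusted threshold and 8 were lower at an unadjusted p of 0.05, beside 6.49% of all genes. In the other 5 lists, negative differences were found for 16 of 27 SWI/SNF genes, 8 of 11 ISWI genes, 9 of 13 CHD and NuRD genes, 13 of 23 genes of INO80, SRCAP and TIP60 and 21 of 29 acetyltransferase genes, of which 1, 1, 0, 1 and 4 were lower at the unadjusted threshold. The deacetylases are described because of these counts, so the counts carry no test of the list. Hdac6, a cytoplasmic deacetylase of tubulin, averaged 12.9 FPKM ± 0.627 in Immo+FC (n = 4) and 14.5 FPKM ± 0.313 in FC (n = 6), a log2 difference of −0.17 ± 0.04 with a limma adjusted p of 0.165. Hdac10, a polyamine deacetylase, differed by −0.25 ± 0.06 from FC and by −0.24 ± 0.06 from HC, with limma adjusted p values of 0.175 and 0.106. Chd9, a relative of Chd6 and Chd7, differed by 0.49 ± 0.14 from FC (limma adjusted p = 0.206), and its longest transcript has 12008 bases. Hdac3, the deacetylase of the NCoR complex, differed by −0.12 ± 0.04 from HC (limma adjusted p = 0.176).

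In blood, Kat8, the catalytic subunit of the MSL and NSL acetyltransferase complexes, averaged 18.1 FPKM ± 2.02 in FC (n = 5) and 12.3 FPKM ± 1.29 in HC (n = 4), a log2 difference of 0.55 ± 0.12 with a limma adjusted p of 0.121. Tada3, an adaptor of the SAGA and ATAC acetyltransferase complexes, differed from HC by 0.39 ± 0.10 in FC and by 0.53 ± 0.10 in Immo+FC, with limma adjusted p values of 0.135 and 0.0567. Smarcb1, a core SWI/SNF subunit, differed by 0.48 ± 0.15 in FC (limma adjusted p = 0.217). In Immo+FC against HC, Hdac6 differed by −0.69 ± 0.18 and Sirt1, an NAD-dependent deacetylase, by −0.47 ± 0.13, with limma adjusted p values of 0.0888 and 0.109. In Immo+FC against FC the smallest p values belonged to the acetyltransferase Kat2b at 0.31 ± 0.11, the SAGA subunit Supt7l at −0.42 ± 0.16 and Hdac1 at −0.20 ± 0.08, each with a limma adjusted p of 0.523.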

How the data were processed

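Amygdala and blood RNA from pools of 2 mice was sequenced after poly-A selection with a TruSeq kit that does not keep strand, and blood RNA was depleted of globin transcripts. Per the labels, the authors used STAR 2.3 with mm10 and made the deposited FPKM values with Cufflinks and Cuffdiff 2.1.1, the tissues apart. Which pools shared a lane is not stated in the methods or labels. The deposited mapping table gives total sequences as counts and mapped reads in percent, as the authors made them, and was used for depth. The authors' own comparisons were not used.

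Here, log2(FPKM + 0.1) was analysed by limma (version 3.58.1, R 4.3.3), allowing the variance to follow the mean, in 1 fit per tissue that held its 3 groups. Tests were two-sided and covered genes whose mean reached 0.5 FPKM in the tissue, with Benjamini-Hochberg adjustment over all of them at a threshold of 0.05. The script was tested on simulated data. Without reads per gene, the depth behind each FPKM value is unknown. The p values set each group difference against the spread between pools within groups, taken over the 3 groups of the tissue. The authors state that cage mates were either all immobilized or all handled. Whether pools shared a cage is not stated, and nothing further is known of how the pools differed. Replicate numbers came from the sample titles, and the same number does not always mark the same pool in both tissues. HC blood libraries 3 and 4 came from the pools of HC amygdala libraries 5 and 6, and FC blood library 5 from that of FC amygdala library 6.

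The 10 genes and all gene lists were chosen with earlier results of these data known. Other chromatin genes were named as the 3 with the smallest p in each comparison, since none passed the threshold. For Chd6, Bptf, Kat6a and Pbrm1 the 3 most correlated genes were taken, and 1 of those for Chd6 is not reported here. Chd2, Srcap, Actr5 and Epc1 had no entry of their own. Of the genes tested, 99.3% in amygdala and 99.2% in blood had a transcript length, from GENCODE on GRCm38. Alternatives were another pseudocount, other filters, median-ratio scaling, 2-group fits, array weights, the replicate block, covariates and libraries left out.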

Additional observations from a re-analysis of the deposited data

Results flagged for a closer look

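In 7 of the 78 sets of values checked, by gene or ratio, group and tissue, 1 library lay far from the others of its group by Dixon's test, where chance gives about 5%. In amygdala, Chd4 was at 21.4 FPKM in HC library 1, below the 23.6 to 24.5 FPKM of the other 5, and Chd7 was at 0.681 FPKM in Immo+FC library 1, below the 0.978 to 1.03 FPKM of the other 3. Both libraries also scored low for long transcripts, but HC library 2, at −0.12, and the FC libraries, at −0.34 to −0.12, did so as well. HC library 2 had Chd4 at 23.98 FPKM and Chd7 at 1.07 FPKM. The FC libraries had Chd4 at 22.1 to 25.8 FPKM and Chd7 at 0.79 to 1.01 FPKM. Whether the score accounts for these low values was not tested. In blood, Pbrm1 was at 24.1 FPKM in HC library 3, above the 7.07 to 9.95 FPKM of the other 3, and the ratio of Chd3 to Chd4 in the same library was 0.520, below 0.712 to 0.729. Ep300 was at 4.27 FPKM in FC blood library 5, below 6.47 to 7.03 FPKM in the other 4. The ratio of Chd6 to Chd7 in blood was 0.744 in FC library 1, below 0.824 to 0.844, and 0.393 in Immo+FC library 1, below 0.662 to 0.751.

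The fitted difference of Kat6a from HC after conditioning had opposite signs in the tissues. In amygdala the log2 difference of FC from HC was −0.28 and 6 of 6 FC libraries lay below the HC mean, and in blood it was 0.34 and 5 of 5 FC libraries lay above it. The difference between the tissues was not tested.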

How the results depend on the processing

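The limma count of other chromatin genes past an adjusted p of 0.05 was 0 in all 6 comparisons. For FC against HC in amygdala it became 8 with array weights (2 higher, 6 lower, beside 3.7% of all genes called), 5 without HC libraries 1 and 2 (all lower, beside 2.65%) and 0 to 2 with any 1 library left out. For Immo+FC against FC in amygdala it became 1 with the 2 groups alone (beside 0.497% of all genes), 2 with array weights (1.27%), 1 without HC libraries 1 and 2 (0.897%) and 0 to 2 with 1 library left out, and for Immo+FC against HC 0 to 1 with 1 library left out. Leaving out Immo+FC library 1 gave 2 for FC against HC (0.674% of all genes) and 2 for Immo+FC against FC (1.07%), leaving out HC library 1 gave 1 for FC against HC (1.06%), and leaving out Immo+FC library 4 gave 1 for Immo+FC against HC (1.1%). In blood, FC against HC gave 4 with no filter on low values (1.11% of all genes), and Immo+FC against HC gave 1 with a pseudocount of 1 FPKM (0.875%), 2 with no filter (0.599%), 3 with array weights (3.1%) and 0 to 1 with 1 library left out, the 1 without HC library 2 (0.137%) and without HC library 3 (2.55%). Immo+FC against FC in blood stayed at 0 under every alternative run. The cause of these changes was not tested.

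Over all tested genes, the 2 calls of FC against HC in amygdala became 131 higher and 369 lower with array weights and 47 higher and 310 lower without HC libraries 1 and 2. Of the 10 genes, array weights called Chd6 at −0.36, Kat6a at −0.28 and Pbrm1 at −0.27, and the fit without HC libraries 1 and 2 called Chd6 at −0.49. No other alternative called any of them. Of 1437 alternative values of their differences, 1406 moved by less than 1 SD between replicates and 31 by more, 17 of them on adding the score of long transcripts to the model and 14 on adding the neuron marker score in blood. Median-ratio scaling shifted the median of all genes by at most 0.023 on the log2 scale.

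Replicate numbers did not mark shared animals across groups. Deviations of same-numbered libraries correlated above 0.1 in 3 of 14 pairs in amygdala and 2 of 13 in blood, and 4 of 16 and 2 of 14 libraries correlated best with their own number. With the replicate block, FC against HC in amygdala had 2 other chromatin genes called, 1 higher and 1 lower, with 38 higher and 122 lower over all genes, and the other 5 comparisons had 0 other chromatin genes called.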
